A study of Moxostoma hubbsi with 18 samples.

Results

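Lipids move through an animal in protein carriers. Here 10 genes for such carriers and for the proteins that load and unload them were followed. The samples were whole larvae of an endangered North American sucker, the copper redhorse (Moxostoma hubbsi). Members were chosen by their KEGG ortholog identifier, a code shared by genes of the same function in different species, and all 10 identifiers on the list were present among the 9645 features of the count table. All 10 passed the filter on low counts, as did 9008 features in all. River water larvae and laboratory water larvae (the control) were compared, with 9 libraries per group. Each library held a pool of 5 whole larvae at 14 days after fertilization, so a value averages over all tissues of several animals. No genotype, strain or cross is given in the labels, and all larvae shared species and age. Nothing in the labels ties the pools to separate tanks or parents, so p-values measure the spread between pools, which may be partly technical.

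Apolipoproteins coat the lipoprotein particles that carry fat and cholesterol in blood. APOB is the structural protein of the large, triglyceride-rich particles, and the microsomal triglyceride transfer protein MTTP loads lipid onto it inside the cell. In zebrafish larvae the layer around the yolk, the intestine and the liver make such particles, and larvae without working Mttp take up yolk and dietary lipid poorly. Fatty acid binding proteins (FABP) are small proteins of the cytosol that hold fatty acids or bile acids. An ortholog identifier can pool several gene copies, and suckers descend from an ancestor with a duplicated genome, so opposite changes of copies would be hidden.

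Of the 10 genes, 2 were lower in river water and 0 were higher at the threshold of 0.05 on the adjusted p (edgeR's quasi-likelihood test, Benjamini-Hochberg adjustment over all 9008 features). These were MTTP and FABP3, the form of heart and muscle. No member was higher by DESeq2 or limma-voom either, where 355 and 180 of the 9008 tested features were higher, in that order. With edgeR 0 members were higher at an unadjusted p under 0.05. In either direction 3 members passed that unadjusted threshold, against 23.7% of all tested features (edgeR). Among all tested features 6.27% changed, and 4.14% were lower in river water. The median log2 fold change (river over laboratory water) of the 10 genes was -0.22, against 0.01 over all tested features, and 8 of the 10 were below 0, against 47.0% of all tested features. Without river water replicate 1, described next, the median of the 10 genes was -0.12 and that of all features was again 0.01. With the main scaling of libraries, in no member were all 9 river water libraries apart from all 9 laboratory water libraries. At that scaling this was the case for 0.888% of the tested features. Scaling by total counts alone set FABP3 apart, as given below, but the share of all features apart was not counted at that scaling. Fewer cells that make a transcript and less of that transcript per cell cannot be told apart in whole larvae.

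Total counts lay between 14868181 and 20584727 per library. The lowest was that of river water replicate 1, which stood apart from all other libraries. It had counts for 9019 features, against 9024 or 9025 in the others, and its TMM scaling factor (trimmed mean of M values) was 0.872, against 0.955 to 1.09. The fold change of each member is given below with and without this library. Without it, 10.9% of the tested features changed, and 3 of the 10 members did so: MTTP, FABP3 and the lipoprotein lipase LPL, all lower in river water. With libraries scaled by total counts alone, the split over all features moved from 192 higher and 373 lower to 314 higher and 221 lower, and FABP3 was then the 1 member that changed. The lowest count of any member in any library was 706, so counting error was at most 3.76% of a value.

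**Figure D1:**
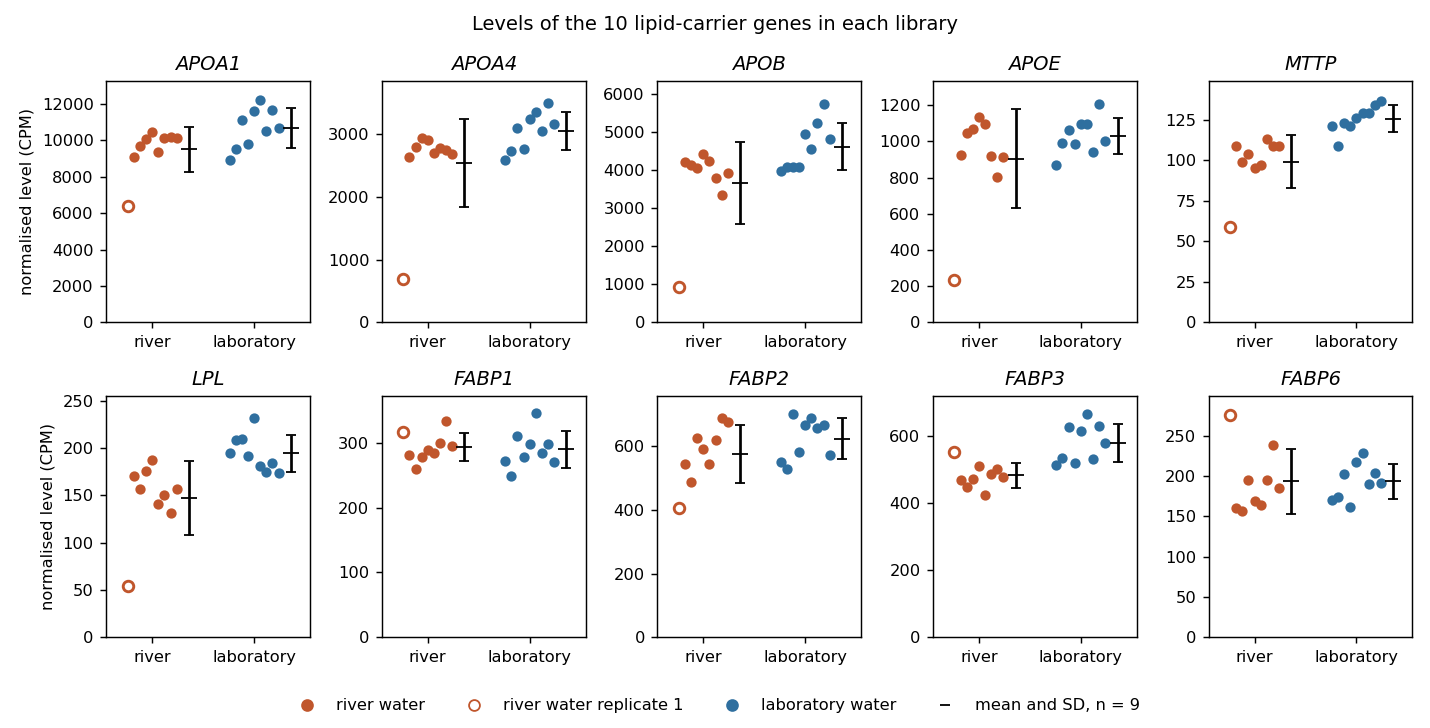
Normalised level (CPM, counts scaled to a common library total) of each of the 10 genes in each library, with river water to the left of laboratory water; points are libraries, the open circle is river water replicate 1, and bars are mean and SD (n = 9 per group). Replicate 1 lies far below the other river water libraries for APOA4, APOB, APOE and LPL, and 8 of the 9 river water points of FABP3 lie below the lowest laboratory water point of 513 CPM.

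MTTP (K14463) had 58.6, 104 and 113 CPM (lowest, median and highest) in river water libraries, against 109, 126 and 137 CPM in laboratory water libraries. Each of the 9 values in river water was below the laboratory mean, and 6 were below the lowest laboratory library. Mean levels were 99.3 ± 16.5 CPM in river water and 126 ± 8.32 CPM in laboratory water (SD, n = 9 each). The log2 fold change was -0.34 ± 0.09 (SE), a level 0.791 times that of laboratory water with a 95% interval of 0.697 to 0.898, and the adjusted p was 0.0258 (edgeR). Without river water replicate 1 the log2 fold change was -0.26 ± 0.04 (SE; adjusted p = 0.00055, edgeR). Scaling by total counts ended the call (log2 fold change -0.31, adjusted p = 0.0808, edgeR).

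The other transcript that fell was FABP3 (K08752), whose protein binds fatty acids for oxidation in heart and skeletal muscle. Its levels were 423, 476 and 552 CPM (lowest, median and highest) in river water libraries, against 513, 577 and 665 CPM in laboratory water libraries. The highest river water value belonged to replicate 1, and the other 8 river water libraries all lay below every laboratory library. With replicate 1 left out, FABP3 was the 1 member whose groups were fully apart, as were those of 1.08% of all tested features. Means were 481 ± 37.1 CPM in river water and 579 ± 56.8 CPM in laboratory water (SD, n = 9 each). The log2 fold change was -0.27 ± 0.06 (SE), or 0.832 times the laboratory level with a 95% interval of 0.765 to 0.906, and the adjusted p was 0.0103 (edgeR). Without replicate 1 it was -0.29 ± 0.05 (SE; adjusted p = 0.00128, edgeR). Scaled by total counts alone, FABP3 had at most 509 CPM in river water, in replicate 5, and at least 525 CPM in laboratory water. At that scaling its groups were apart over all 18 libraries. The share of all features apart was not counted, so how unusual this is cannot be judged.

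A number from 1 to 3 and a letter from A to C stand in each deposited file's name, with no meaning given in the labels. If the numbers mark sets of related pools, the 9 libraries of a water are not independent. With counts summed within number (3 samples per group), the adjusted p was 0.0496 for MTTP and 0.0239 for FABP3 (edgeR). In that fit 311 of the 9025 tested features changed. The groups were also compared within each number (3 libraries against 3). For MTTP the log2 fold changes were -0.40, -0.36 and -0.27 within numbers 1, 2 and 3, and for FABP3 they were -0.19, -0.37 and -0.24. Both were below laboratory water in each of the 3 subsets, as were APOA1, APOA4, APOB and LPL, so 6 of the 10 members, against 22.4% of all features. Number 1 holds river water replicate 1. River water replicates 2 and 3 of that number had 4223 and 4148 CPM of APOB, above its 3 laboratory libraries at 3973 to 4094 CPM. For MTTP, FABP3, APOA1, APOA4 and LPL both replicates lay below the laboratory mean of number 1. With so few libraries, the adjusted p of MTTP was 0.626, 0.0962 and 0.00388 and that of FABP3 was 0.63, 0.194 and 0.0323 (edgeR), in the same order. Within number 3, where 3.06% of the tested features changed, 5 members passed, all lower in river water: MTTP, FABP3, LPL, APOA4 and APOB.

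**Figure D2:**
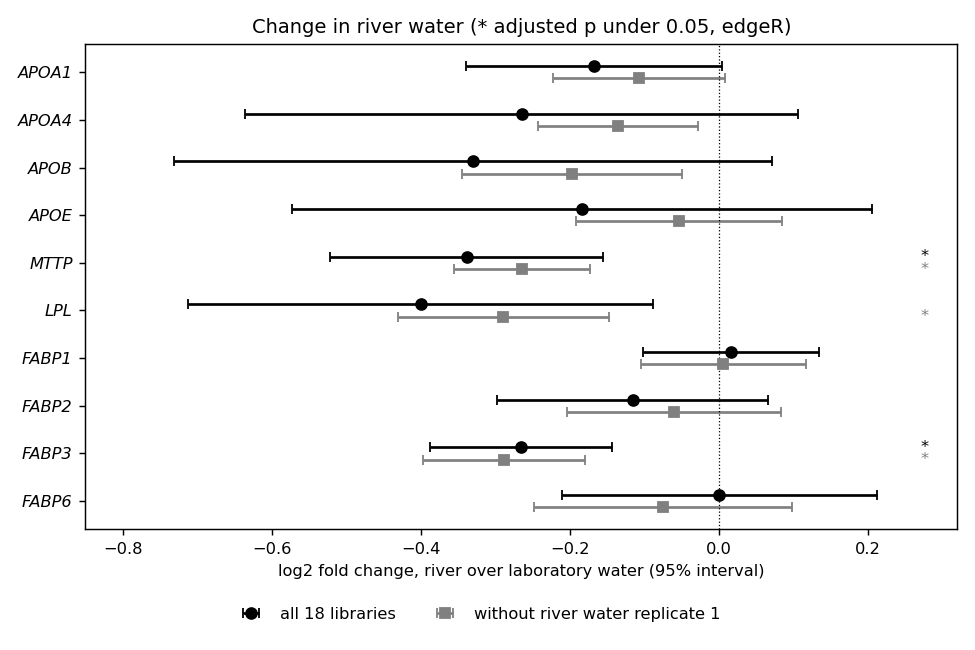
Log2 fold change of each gene, river over laboratory water, with its 95% interval, from all 18 libraries (black circles) and without river water replicate 1 (grey squares); asterisks mark an adjusted p under 0.05. MTTP and FABP3 carry an asterisk in both fits and LPL in the second, and the intervals of the 4 apolipoproteins narrow once replicate 1 is left out. The intervals are not adjusted for the number of features, so some exclude no change without an asterisk. These are LPL with all libraries, and APOA4 and APOB without replicate 1.

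LPL (K01059) cuts the triglycerides of circulating lipoproteins at the vessel wall so that tissues can take up the fatty acids. It had 54.5, 156 and 188 CPM (lowest, median and highest) in river water libraries, against 173, 191 and 232 CPM in laboratory water libraries. Each of the 9 values in river water was below the laboratory mean, and 7 were below the lowest laboratory library. With all libraries its log2 fold change of -0.40 ± 0.15 (SE) was the largest in size among the members. Without river water replicate 1 that of LPL was -0.289, against -0.288 for FABP3. LPL did not pass the test with all libraries (adjusted p = 0.115, edgeR). Without river water replicate 1 the difference was smaller and its error too, -0.29 ± 0.07 (SE), and LPL then passed (adjusted p = 0.00967, edgeR), with means of 159 ± 18.6 CPM in river water (SD, n = 8) and 194 ± 19.2 CPM in laboratory water (SD, n = 9).

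Of the 4 apolipoproteins, 0 passed the test with all libraries (edgeR, DESeq2 or limma-voom) or without replicate 1 (edgeR). With all libraries 0 of them had an unadjusted p under 0.05 with edgeR and 1 each with DESeq2 and limma-voom, against 23.7% (edgeR), 24.5% (DESeq2) and 23.5% (limma-voom) of all tested features. Without replicate 1 there were 2, against 26.0% of all tested features (edgeR). APOB (K14462) had 924, 4057 and 4434 CPM (lowest, median and highest) in river water libraries, against 3973, 4552 and 5746 CPM in laboratory water libraries. In river water 9 of 9 libraries fell short of the laboratory mean, and 4 were below the lowest laboratory library. The log2 fold change was -0.33 ± 0.19 (SE; adjusted p = 0.305, edgeR), and without replicate 1 it was -0.20 ± 0.07 (SE; adjusted p = 0.0781, edgeR).

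APOA1 (K08757), the main protein of high-density lipoproteins, had 6413, 10071 and 10473 CPM in river water libraries, against 8902, 10696 and 12210.4 CPM in laboratory water libraries. Its log2 fold change was -0.17 ± 0.08 (SE), with a 95% interval of -0.34 to 0.00 and an adjusted p of 0.221 (edgeR), and without replicate 1 it was -0.11 ± 0.06 (SE; adjusted p = 0.229, edgeR). APOA4 (K08760), an apolipoprotein that mammals make mainly in the intestine, had 691, 2741 and 2947 CPM in river water libraries, against 2596, 3095 and 3489.8 CPM in laboratory water libraries. For both genes every river water library had less than the laboratory mean, and replicate 1 was the only one outside the laboratory range. The log2 fold change of APOA4 was -0.26 ± 0.18 (SE) with all libraries (adjusted p = 0.376, edgeR) and -0.14 ± 0.05 (SE) without replicate 1 (adjusted p = 0.0944, edgeR).

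APOE (K04524) is the protein by which remnant particles bind receptors of the LDL receptor family. Its levels were 236, 923 and 1134 CPM in river water libraries, against 871, 1001 and 1209 CPM in laboratory water libraries. Here 5 of the 9 values in river water were below the laboratory mean and 4 above it. The log2 fold change was -0.18 ± 0.19 (SE; adjusted p = 0.575, edgeR), and without replicate 1 it was -0.05 ± 0.07 (SE), with a 95% interval of -0.19 to 0.09.

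The other 3 fatty acid binding proteins gave smaller differences. FABP1 (K08750), the liver form of mammals, had 259.6, 289 and 334 CPM in river water libraries, against 249, 284 and 346 CPM in laboratory water libraries. Every river water library lay within the laboratory range, and the level was 1.01 times that of laboratory water, with a 95% interval of 0.932 to 1.10 (adjusted p = 0.889, edgeR). Its log2 fold change was 0.017 ± 0.06 (SE) with all libraries and 0.0058 ± 0.05 (SE) without replicate 1. FABP2 (K08751), the form of absorptive cells of the intestine, had 404, 592 and 688 CPM in river water libraries, against 529, 656 and 700.0 CPM in laboratory water libraries. Its level was 0.923 times that of laboratory water, with an interval of 0.813 to 1.05 (adjusted p = 0.431, edgeR). On the log2 scale this was -0.12 ± 0.09 (SE), and -0.06 ± 0.07 (SE) without replicate 1.

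FABP6 (K08755), which binds bile acids in the lower intestine of mammals, had 157, 185 and 277 CPM in river water libraries, against 162, 192 and 228 CPM in laboratory water libraries. River water libraries lay on both sides of the laboratory range, 2 above its highest value and 2 below its lowest. Means were 194 ± 40.3 CPM in river water and 193 ± 22.3 CPM in laboratory water (SD, n = 9 each), and the 95% interval of the ratio was 0.864 to 1.16 (edgeR). The log2 fold change was 0.0006 ± 0.10 (SE) with all libraries and -0.07 ± 0.08 (SE) without replicate 1. The 95% interval of FABP3, 0.765 to 0.906 times the laboratory level, overlapped those of FABP2 and FABP6 and lay below that of FABP1. Differences in response between the 4 genes were not tested.

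River water replicate 1 departed from the other river water libraries to a degree that differed from gene to gene. Its level of APOB was 23.0% of the mean over the 8 remaining libraries of river water, that of APOE 23.85% and that of APOA4 24.9%. LPL was at 34.35%. These 4 members were more than 2-fold lower, as were 9.06% of all tested features, and 1.67% to 1.96% of all features had a lower relative level than APOB, APOE or APOA4. The level was 56.15% for MTTP, 64.85% for APOA1 and 67.8% for FABP2. With TMM scaling the other fatty acid binding proteins were not lower here, with 109% for FABP1, 117% for FABP3 and 151% for FABP6. By total counts alone FABP1 had 275.8 CPM in replicate 1, against 277.9 to 323 CPM in the other river water libraries. FABP3 then had 481 CPM against 460 to 509 CPM, and FABP6 had 241 CPM against 165 to 231 CPM. FABP6 had its highest value of all 18 libraries there, and APOA1, APOA4, APOB, APOE, MTTP, LPL and FABP2 had their lowest. This library also had the lowest depth, the lowest scaling factor and the fewest features detected, and their part in these values was not tested. Its total count was 14868181, against 15893484 in the next lowest library. The scaling factor of 0.872 raises its CPM. By total counts alone it had 806 CPM of APOB, 205 CPM of APOE and 47.5 CPM of LPL, against 924, 236 and 54.5 CPM with the factor.

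**Figure D3:**
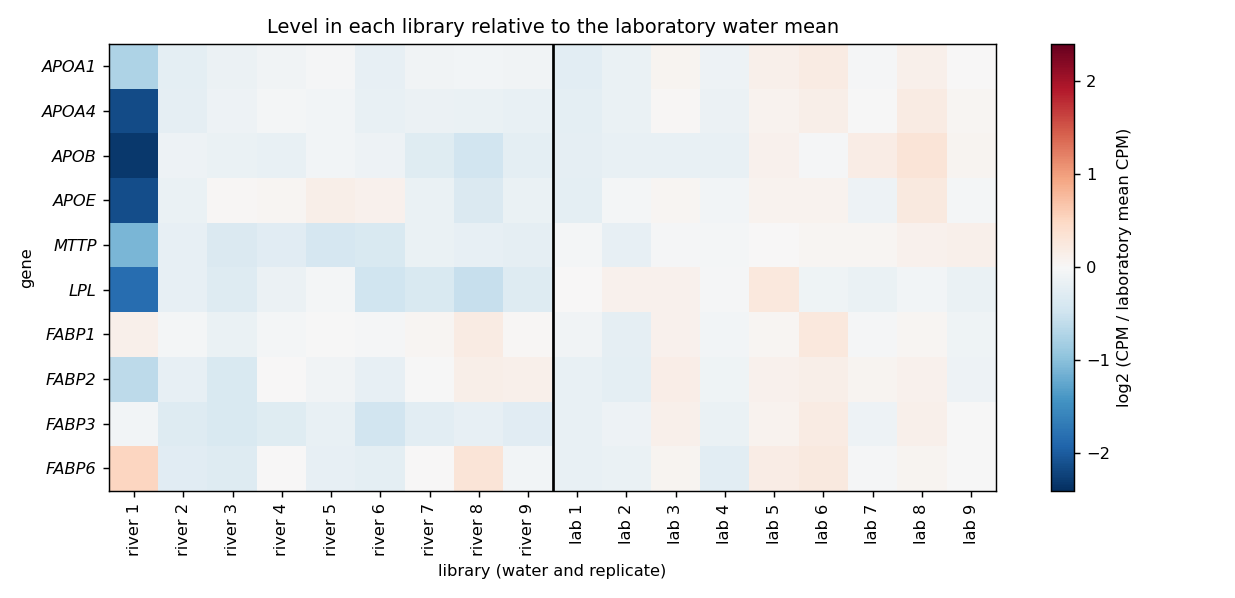
Log2 ratio of the CPM in each library to the laboratory water mean for each gene, river water libraries on the left and laboratory water libraries on the right of the line. The column of river water replicate 1 is dark blue for APOA4, APOB, APOE and LPL, lighter blue for MTTP, APOA1 and FABP2, and pale red for FABP6. The rows of MTTP and FABP3 are pale blue in the other 8 river water libraries. APOA1, APOA4, APOB and LPL also lie below the laboratory mean in each of the 9 river water libraries.

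The 10 genes together held 0.866% of the counts in river water replicate 1 and 1.845% to 2.085% in the other 8 river water libraries, against 1.87% to 2.38% in the laboratory water libraries. For the 4 apolipoproteins the shares were 0.721% in replicate 1 and 1.65% to 1.90% in the other river water libraries, against 1.68% to 2.17% in laboratory water. The 4 fatty acid binding proteins held 0.135% in replicate 1 and 0.145% to 0.171% in the other river water libraries, against 0.1525% to 0.186% in laboratory water. Apart from replicate 1, the river water shares overlapped with those of laboratory water.

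Ratios of counts between 2 genes of the same library do not depend on how libraries are scaled. They do depend on gene length, so only their differences between libraries are read. Of the 45 ratios among the 10 genes, 1 separated all 9 river water libraries from all 9 laboratory water libraries, that of FABP3 to FABP1. It was between 1.49 and 1.76 in river water and between 1.86 and 2.14 in laboratory water, with means of 1.65 ± 0.0979 and 2.00 ± 0.119 (SD, n = 9 each) in the same order. Replicate 1, at 1.74, lay within the range of its group. The ratio was singled out after all 45 had been seen and was not tested. For comparison, the ratio to FABP1 separated the groups for 0.433% of the tested features. That share keeps FABP1 fixed and does not allow for the choice among 45 ratios. The count of APOA1 per count of APOB instead set replicate 1 apart and overlapped otherwise, with 6.94 in river water replicate 1 and 2.15 to 3.05 in the other river water libraries, against 2.01 to 2.72 in laboratory water.

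**Figure D4:**
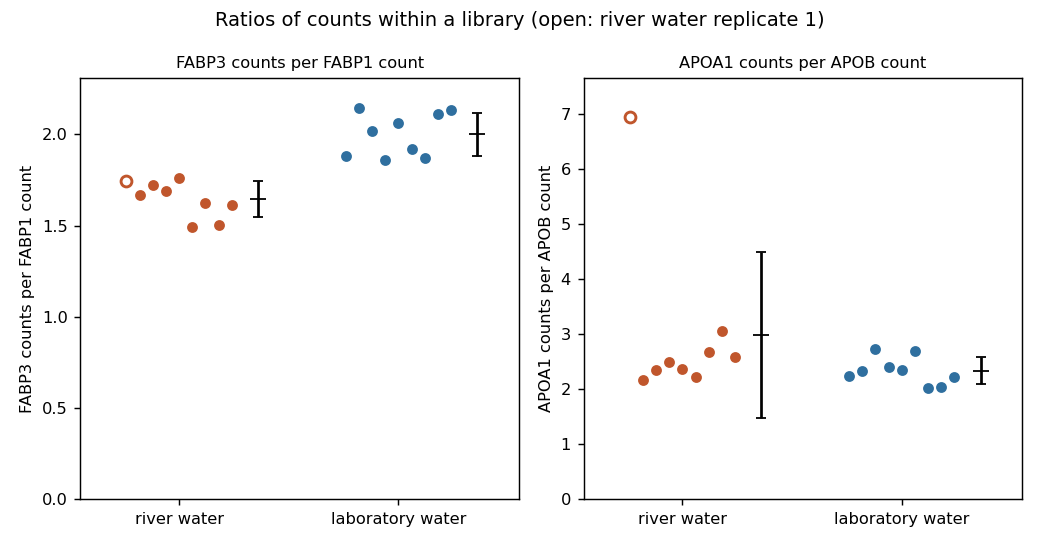
Counts of FABP3 per count of FABP1 and counts of APOA1 per count of APOB in each library, river water left of laboratory water, with bars for mean and SD (n = 9) and an open circle for river water replicate 1. The first ratio is at most 1.76 in river water and at least 1.86 in laboratory water; the second overlaps between waters apart from replicate 1 at 6.94.

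The likeness of the members was described by Spearman's correlation of log2 CPM across libraries, which share their scaling. Over all 18 libraries APOA1 and APOA4 were closest to each other (0.92), as were APOB and APOE (0.73), and FABP1 and FABP6 (0.78). MTTP was closest to APOA1 (0.69), FABP2 to APOA1 (0.80), FABP3 to MTTP (0.66) and LPL to FABP3 (0.52). Over the 17 libraries without river water replicate 1, APOA1 and APOA4 (0.90) and APOB and APOE (0.67) were still closest to each other, MTTP and FABP3 were closest to each other (0.80), and FABP2 was closest to FABP1 (0.86). These values pool both waters and so also hold the difference between them. Within one water (8 river water libraries without replicate 1, and 9 laboratory water libraries), MTTP and FABP3 correlated at 0.24 in river water and 0.48 in laboratory water, and LPL and FABP3 at 0.12 in river water and -0.02 in laboratory water. APOA1 and APOA4 correlated at 0.45 in river water and 0.97 in laboratory water, APOB and APOE at 0.88 in river water and 0.50 in laboratory water, and FABP1 and FABP2 at 0.71 in river water and 0.95 in laboratory water. The median correlation of a member with all tested features was between -0.03 and 0.01 over the 18 libraries. Among features outside the list, K12749 (0.62) and K12750 (0.62) had the highest mean correlation with the 10 members over 18 libraries. Other features, at 0.665 and 0.645, took their place once replicate 1 was left out. The files do not pair these identifiers with names.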

How the data were processed

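The authors deposited raw whole-number counts per KEGG ortholog identifier, 1 file per library (9025 features) and a table of the series (9645 features); 0 shared values differ and 0 columns of per-sample values went unused. How reads were aligned and counted is not stated in any label or header used here; edgeR is named without a version, per the submitters' processing notes. Gene names of the members come from the request for this work, since the files pair identifiers with no names. Other pathway genes and tissue markers could therefore not be matched, and gene length, position and sequence are not analysed here.

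Per-library files were fitted in R 4.3.3 with edgeR 4.0.16: default low-count filter (minimum count 10, minimum total 15; 17 features removed), TMM scaling, robust quasi-likelihood F test with water as the only term, Benjamini-Hochberg adjustment over all tested features, threshold 0.05. CPM are counts divided by the TMM-scaled total and brought to a common total; log2 CPM used a prior count of 2. The SE of a log2 fold change is its size over the square root of F. The 95% intervals use the moderated degrees of freedom and are not adjusted for the number of features. The fit was also run on simulated counts, which held no library set apart like river water replicate 1, and nothing here rests on that run. Alternatives included DESeq2 1.42.0 and limma-voom (limma 3.58.1). All 10 members were named by rule; members, lists and alternatives were chosen with earlier results of these data known.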

Additional observations from a re-analysis of the deposited data

Results flagged for a closer look

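In each gene and water, the library farthest from the rest was compared with the other 8 by its gap to the nearest library as a share of the group's whole range, and set against Dixon's 95% critical value. Of the 20 sets, 6 exceeded it. All 6 concerned the low value of river water replicate 1, so they are not separate observations. The nominal rate of about 1 in 20 does not allow for a library set apart across many features. The shares were 0.66 for APOA1, 0.86 for APOA4, 0.688 for APOB, 0.634 for APOE, 0.668 for MTTP and 0.58 for LPL. No set of laboratory water and no fatty acid binding protein exceeded the value.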

How the results depend on the processing

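The count of 565 changed features became 1041 without river water replicates 1 and 6, 311 with counts summed within file number (3 samples per group), and 0, 5 and 276 within file numbers 1, 2 and 3 (3 libraries per group), with 642 at an unadjusted p under 0.05 in number 1 (edgeR). DESeq2 called 899 and limma-voom with quality weights 1225. It lay between 377 and 979 when single libraries were omitted, with the maximum for river water replicate 1. Of the members, 2 changed; this became 1 with total counts only (FABP3), 0, 0 and 5 within file numbers 1, 2 and 3 (0 and 3 at an unadjusted p under 0.05 in numbers 1 and 2, against 7.12% and 13.7% of all features, edgeR), and 3 without river water replicate 1, without replicates 1 and 6 or with quality weights (LPL added). A replicate block (the replicate number as a term) left 356 changed features and 1 changed member, MTTP; FABP3 then had a log2 fold change of -0.26 at an adjusted p of 0.0516 (edgeR). No label says that the numbers pair the samples, and the data do not show it: 4 of 9 same-numbered pairs correlated by more than 0.1 (-0.433 to 0.372), and 1 of 9 libraries of each water correlated best with its own number.

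MTTP and FABP3 passed in every fit that omitted 1 library (highest adjusted p 0.0488 and 0.0241, edgeR). With counts summed within file number the adjusted p was 0.0496 for MTTP, 0.0239 for FABP3 and 0.0507 for LPL (edgeR). Members that did not pass changed sign in 20 cases. FABP6 was at -0.014 with limma-voom, -0.050 with quality weights, -0.016 with the replicate block, -0.0012 with the file number as a block, -0.019 when summed, -0.056 without river water replicates 1 and 6 and -0.21 within file number 2, where FABP1 was at -0.13 and APOE at 0.047; FABP2 was at 0.067 within file number 3. With 1 library left out FABP6 ranged from -0.075 to 0.036 and FABP1 from -0.0086 to 0.055. Within file number 3, where 3.06% of features changed, APOA4, APOB and LPL also passed. The cause of these moves was not tested. Within-number fits rest on 3 libraries per group, and pooled gene copies limit what a feature's value shows.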

Other observations

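River water libraries were also set apart by the number in their file names, with TMM scaling and replicate 1 left out. The 3 libraries of number 3 did not overlap with the 5 others for 3 of the 10 members, in opposite directions. This was the case for 10.1% of all tested features. APOB was 3339 to 3923 CPM in the 3 libraries and 4057 to 4434 CPM in the 5 others, and APOE was 806 to 917 CPM against 923 to 1134 CPM. FABP1 was higher in the 3 libraries, 295 to 334 CPM against 259.6 to 289 CPM in the 5. By total counts alone FABP1 overlapped, with 308 CPM in replicate 6 of the 5 and 297 CPM in replicate 7 of the 3. In laboratory water 1 member separated the 3 libraries of that number from the 6 others, MTTP with 129.62 to 136.73 CPM in the 3 and 109 to 129.56 CPM in the 6, and 6.48% of all tested features did so. These ranges were noticed in the data and the differences between file numbers were not tested.

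Spearman's correlation of log2 CPM between members was also taken within each water. The median over the 16 pairs of an apolipoprotein with a fatty acid binding protein was -0.25 over 8 river water libraries (without replicate 1) and 0.76 over 9 laboratory water libraries. In river water these 16 values ranged from -0.738 to 0.929, with 9 below 0, and they differed by apolipoprotein. They were 0.619 to 0.929 for APOA1, -0.262 to 0.286 for APOA4, -0.738 to -0.31 for APOB and -0.571 to -0.238 for APOE. In laboratory water they ranged from 0.333 to 0.95. Over the 6 pairs of apolipoproteins the median was 0.26 in river water and 0.83 in laboratory water. Over the 6 pairs of fatty acid binding proteins it was 0.70 in river water and 0.76 in laboratory water, and over the 17 pairs with MTTP or LPL it was 0.07 in river water and 0.17 in laboratory water. The pairs share libraries and scaling, and differences between the waters were not tested.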
